A study of Rattus norvegicus with 11 samples.

Results

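Gstm1 (ENSRNOG00000029726) and Sult1a1 (ENSRNOG00000019342) encode enzymes that attach a small polar group to reactive or signaling molecules. They were taken by identifier from the 32883 Ensembl genes counted in each rat, and are 2 of these genes. Both were selected on their CPM in these same rats, with results of the strain comparisons in view, so their values are described and not tested.

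RNA was obtained from the corpora quadrigemina (the inferior and superior colliculi of the midbrain) of 4-month-old male rats. The 11 libraries came from 3 Krushinsky-Molodkina (KM) rats, a line derived from Wistar stock by selection for audiogenic epilepsy, 4 “0” rats, bred from KM × Wistar hybrids for the lack of sound-induced seizures, and 4 outbred Wistar (W) rats as the wild-type control. The labels give Wistar as the strain of all 3 groups, and 1 library was made per rat. Per the methods, all groups heard the sound 4 days before dissection, but earlier exposure differed, since in earlier screening KM rats had been given 1 sound test and “0” rats 3. Per the methods, KM rats responded to sound with tonic convulsions of maximal intensity, and the “0” and W rats used were not prone to seizures. Strain, number of sound tests and seizures after sound cannot be told apart. Seizures still occur in part of the “0” line, and both “0” and W rats that responded with any seizure stage were left out. Reads on genes numbered 10545964 to 15140180 per rat, and 3 reads, taken as the smallest detectable amount, were worth 0.198 to 0.284 CPM, the read count relative to library size. Group values are means ± SD over the 3 KM, 4 “0” and 4 W rats. This floor and the counting intervals below cover counting error only.

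Glutathione S-transferases join glutathione to electrophilic compounds, among them products of lipid oxidation, and the mu class, to which Gstm1 belongs, is abundant in liver and present in glia of the brain. Cytosolic sulfotransferases transfer sulfate from the donor PAPS to phenols, monoamines, thyroid hormones and steroids, and Sult1a1 is the phenol-sulfating form. Both reactions belong to the conjugation phase of detoxification. Glutathione conjugation draws on the supply of cysteine through the cystine/glutamate antiporter, and several of its genes are controlled by the transcription factor Nrf2, which binds antioxidant response elements.

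The 250 bases before the RefSeq start site of each gene are given so that the sequence in front of these genes can be compared. They come from the GRCr8 assembly, whereas the counts were made on Rnor_6.0, and capitals mark the motifs that were found. The window of Gstm1 is chr2:198343384-198343633 and that of Sult1a1 is chr1:190706113-190706362, both on the minus strand.
Gstm1: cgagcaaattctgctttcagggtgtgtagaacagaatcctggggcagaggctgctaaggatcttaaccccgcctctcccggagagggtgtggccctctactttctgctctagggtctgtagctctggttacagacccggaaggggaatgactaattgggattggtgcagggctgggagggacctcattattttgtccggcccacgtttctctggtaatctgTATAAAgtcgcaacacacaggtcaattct
Sult1a1: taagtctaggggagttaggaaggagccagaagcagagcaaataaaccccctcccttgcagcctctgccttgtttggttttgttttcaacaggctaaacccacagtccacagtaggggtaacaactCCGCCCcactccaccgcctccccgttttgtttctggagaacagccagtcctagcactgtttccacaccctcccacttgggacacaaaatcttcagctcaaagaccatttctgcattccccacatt

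Letters searched on both strands were TATAAA (the TATA box), GGGCGG (the GC box), TGACNNNGC (the core of the antioxidant response element) and GCGTG (the core of the xenobiotic response element). The Gstm1 window held 1 TATA box, from base -29 to base -24 counted back from the start. TATAAA occurred in 12.9% of 33469 windows of this length. The Sult1a1 window held 1 GC box, on the reverse strand from base -125 to base -120, where 30.5% of the windows had one. Neither window held the letters TGACNNNGC, which 10.1% of windows had, or GCGTG, which 25.9% had.

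Gstm1 was lowest in KM rats, intermediate in “0” rats and highest in W rats. KM 1, KM 2 and KM 3 had 134, 168 and 132 CPM. The “0” rats, numbered 1 to 4, had 207, 199, 250 and 155 CPM, and the W rats 219, 224, 257 and 290 CPM. Every KM rat was below every W rat, but KM 2 was above “0” 4, and “0” 3 lay among the W rats. The mean was 145 ± 20.4 CPM in KM, 203 ± 39.0 CPM in “0” and 247 ± 33.1 CPM in W rats. A mean order with KM lowest and W highest was found in 19.1% of the 13694 genes with a mean of at least 1 CPM over the 11 rats, and 6.27% of the genes tested in KM vs W had every KM rat below every W rat.

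In log2-fold changes fitted with edgeR, each with its standard error (SE), Gstm1 differed by -0.77 (SE 0.15) in KM vs W, which made W rats 1.71-fold higher. The log2-fold change was -0.48 (SE 0.19) in KM vs “0” and -0.29 (SE 0.16) in “0” vs W. The direction was the same when any single rat was left out, with values from -0.91 to -0.70 in KM vs W, from -0.61 to -0.38 in KM vs “0” and from -0.40 to -0.17 in “0” vs W. The KM vs “0” and “0” vs W differences therefore moved more, in proportion to their size, than the KM vs W difference. Both ends of the “0” vs W range came from “0” rats, the smaller difference without “0” 4 and the larger one without “0” 3. The study's compensation coefficient, the KM to “0” distance as a percent of the KM to W distance in mean log2 CPM, was 61.4% for Gstm1, and 47.4% to 77.2% without single rats. The KM mean stands in both distances.

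Counting error was a small part of this spread. With 1634 to 3088 reads per rat, sampling alone would give a coefficient of variation near 2.28% in KM, 2.07% in “0” and 1.85% in W rats, whereas the rats varied by 14.1%, 19.2% and 13.4%. The spread in “0” rats depended on the scaling. Levels are given after TMM scaling, which corrects library sizes for genes that take up a large share of reads. Its factor was 0.815 for “0” 3, where the 10 genes with most reads held 29.2% of them, and 1.13 for “0” 4, where they held 7.95%. Without TMM factors the “0” rats had 202, 198, 204 and 175 CPM, a mean of 195 ± 13.4 CPM. KM rats then ranged from 139 to 172 CPM and W rats from 223 to 267 CPM, and no 2 strains overlapped. The share of all genes whose strains stay apart under this scaling was not determined. The part of these libraries' composition in the Gstm1 values was not tested.

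**Figure D1:**
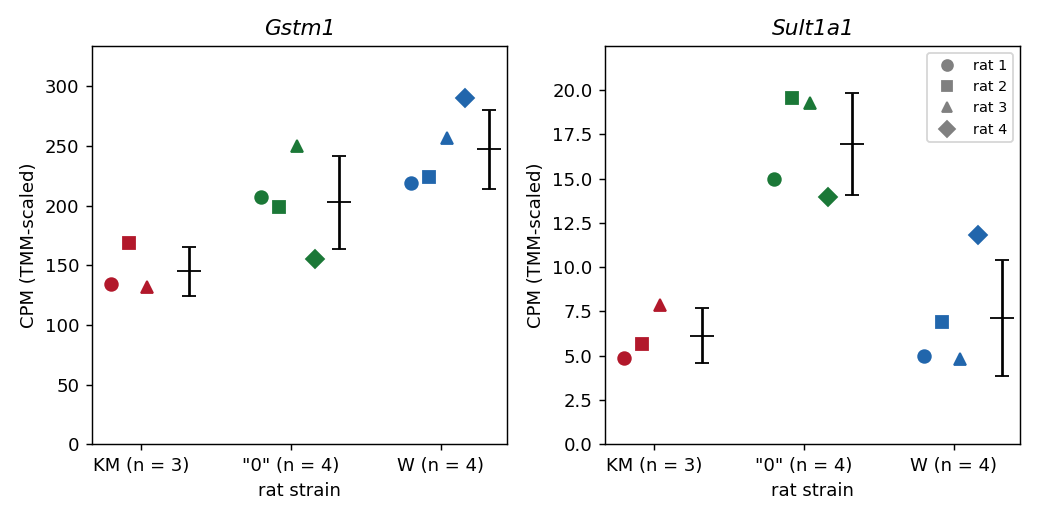
Level of Gstm1 (left) and Sult1a1 (right) in each rat, in TMM-scaled CPM on linear axes from 0. Symbols are single rats, and the dash with bars is the mean ± SD of the strain. Gstm1 is lowest in KM and highest in W rats with “0” 4 at 155 CPM inside the KM range, and all 4 “0” rats stand above the other 7 for Sult1a1.

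Sult1a1 showed another order, with the highest level in “0” rats and similar low levels in KM and W rats. The “0” rats had 15.0, 19.6, 19.3 and 14.0 CPM. KM 1 to KM 3 had 4.85, 5.69 and 7.85 CPM. W 1 to W 4 had 5.01, 6.89, 4.82 and 11.8 CPM. All 4 “0” rats lay above all 7 other rats, a pattern found in 42 of 13694 genes, or 0.307%, and the range of the KM rats lay within that of the W rats. A mean that was highest in “0” rats was found in 29.8% of genes. Means were 17.0 ± 2.88 CPM in “0”, 6.13 ± 1.55 CPM in KM and 7.14 ± 3.27 CPM in W rats.

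The log2-fold change of Sult1a1 was -1.46 (SE 0.24) in KM vs “0”, a 2.75-fold higher level in “0” rats, and 1.24 (SE 0.29) in “0” vs W, a 2.36-fold higher level in “0” rats. Leaving out single rats gave -1.66 to -1.32 in KM vs “0” and 1.09 to 1.59 in “0” vs W. In KM vs W the value was -0.21 (SE 0.35), smaller than its standard error, and it was 0.13 without W 4, the W rat with the highest level. Because this difference is the denominator of the compensation coefficient, no coefficient is given for Sult1a1. Every KM rat was below every “0” rat, as in 2.21% of the genes tested, and every “0” rat was above every W rat, as in 2.35%. With TMM factors left out, “0” rats ranged from 14.6 to 19.5 CPM and the other rats from 4.72 to 10.9 CPM, so the separation did not depend on this scaling.

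**Figure D2:**
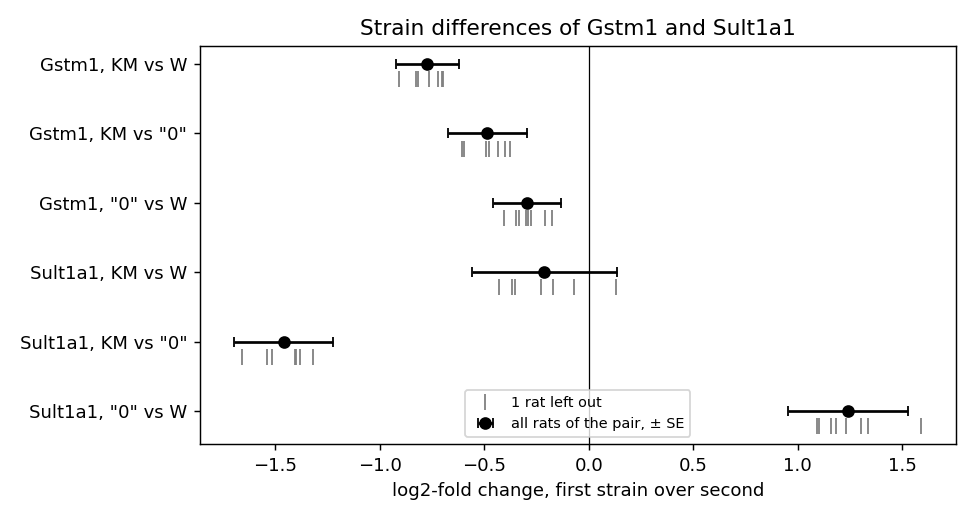
Log2-fold change of each gene between pairs of strains (x axis, first strain over second). Black points with bars are fits with all rats of the pair ± SE, and grey ticks are fits with 1 rat left out. The ticks keep to 1 side of 0 except for Sult1a1 in KM vs W, where they run from -0.43 to 0.13.

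Sult1a1 rested on fewer reads than Gstm1. Its reads numbered 59 to 133 in KM, 175 to 215 in “0” and 56 to 126 in W rats. The exact Poisson 95% interval was 12.2 to 16.0 CPM for “0” 4, the lowest “0” rat, and 9.87 to 14.1 CPM for W 4, so these 2 rats overlapped in counting error. For KM 3, the highest KM rat, it was 6.57 to 9.30 CPM. The coefficient of variation was 45.8% in W rats, where counting alone would give about 11.4%, 25.3% in KM and 17.0% in “0” rats. Within strains the standard deviation of log2 CPM was 0.43 for Sult1a1, above that of 74.5% of the 1959 genes with a mean log2 CPM within 0.5 of it. For Gstm1 it was 0.23, above that of 58.1% of 725 such genes. Levels of the 2 genes were not compared with each other, since CPM is not corrected for transcript length.

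Several libraries stood apart in markers of other cells. The 8 choroid plexus markers that could be named, of 10 listed, summed to 8160 CPM in KM 3 and to 160 to 294 CPM in the other 10 rats. Ttr, the transthyretin gene of choroid epithelium, had 6416 CPM in KM 3 and 0.130 to 44.5 CPM in the other 10 rats, where Enpp2, also expressed outside the choroid plexus, was the most abundant at 133 to 223 CPM. The sum was 196 ± 19.3 CPM in “0” and 216 ± 58.1 CPM in W rats, and 0 of the 8 were DEGs higher and 2 DEGs lower in “0” vs W, where 6.69% of all genes were DEGs. All 8 markers had higher fitted levels in KM rats in both comparisons, 6 of them as DEGs against W and 8 against “0”, where DEG stands for an edgeR quasi-likelihood p below 0.05 before adjustment. Symbols came from the study's supplementary table of genes that differ between strains, so markers and other named genes were chosen for differing. Against W, 10.9% of all genes tested were DEGs, and 694 higher and 689 lower of the 1759 with a symbol. Against “0” these were 3.65% of all genes, and 280 higher and 170 lower of the 1744 with a symbol. KM 3 was also the KM rat with the most Sult1a1. Without KM 3, Sult1a1 had a log2-fold change of -1.66 in KM vs “0” and -0.43 in KM vs W, and Gstm1 had -0.40 and -0.70. Erythrocyte markers (4 rows for Hba-a2, Alas2 and Slc4a1, of 6 symbols listed) summed to 6616 CPM in W 4 and to 2510 to 3904 CPM in the other W rats. Hba-a2, an alpha-globin gene, held most of this sum. W 4 had the most Gstm1 and the most Sult1a1 of the W rats. In “0” rats the erythrocyte sum was 1437 ± 282 CPM, the lowest of the strains. The part of these cells in the results was not tested.

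Cells of the brain itself were described by the markers with a symbol. Of the 14 astrocyte markers 6 could be named, and their sum was 4378 ± 182 CPM in KM, 4365 ± 644 CPM in “0” and 3876 ± 163 CPM in W rats. Gfap had the highest mean in KM and “0” rats, and S100b in W rats. The sum covers members that went opposite ways. In KM vs W, 1 was a DEG higher in KM (Gfap, an intermediate filament) and 3 were DEGs lower in KM (Aldh1l1, Gja1 and Gjb6). Of all genes 5.58% were DEGs higher and 5.33% lower there, and 694 and 689 of the 1759 with a symbol. In KM vs “0”, S100b, a calcium-binding protein, was a DEG higher in KM, and Aldh1l1 and Agt, which is angiotensinogen, were DEGs lower in KM. The shares there were 2.37% higher and 1.29% lower, and 280 and 170 of the 1744 with a symbol. In “0” vs W, Gfap was higher and Gja1 and S100b were lower in “0” rats, against 3.26% and 3.43% of all genes. S100b had 1496 ± 241 CPM in KM, 873 ± 161 CPM in “0” and 1248 ± 275 CPM in W rats. Aldh1l1, a folate enzyme of astrocytes, had 56.5 ± 4.04 CPM in KM, 78.8 ± 16.0 CPM in “0” and 77.5 ± 7.16 CPM in W rats. The 4 named endothelial markers, led by Flt1, summed to 226 ± 11.1 CPM in KM, 215 ± 17.1 CPM in “0” and 160 ± 10.2 CPM in W rats. In KM vs W all 4 were DEGs higher in KM rats, 1 of them with an adjusted p under 0.05 in edgeR. Of all genes tested 5.58% were DEGs higher in KM, as were 694 of the 1759 with a symbol, and 0.0656% had such an adjusted p. In KM vs “0” 0 of the 4 were DEGs. In “0” vs W 3 were DEGs higher in “0” rats, against 3.26% of all genes and 224 of the 1754 with a symbol. The 2 named microglial markers summed to 39.6 ± 3.41, 38.5 ± 6.70 and 39.0 ± 3.64 CPM in the same order. Both were DEGs in KM vs W, as 10.9% of all genes were, in opposite directions. Tmem119 had 24.6 ± 2.55 CPM in KM and 17.5 ± 1.98 CPM in W rats. C1qc, a complement component, had 15.0 ± 0.930 CPM in KM and 21.5 ± 1.79 CPM in W rats. Fewer cells of a type and less RNA per cell cannot be told apart in such tissue, and the part of these cell types in Gstm1 and Sult1a1 was not tested. Of the 13 midbrain markers only Pou4f1, a transcription factor of collicular neurons, could be named. It was at 0.0821 CPM in KM 1 and 0.170 CPM in KM 2, both under the floor of 3 reads, at 1.18 CPM in KM 3, at 0.237 to 2.08 CPM in “0” and at 0.846 to 2.76 CPM in W rats, and was a DEG lower in KM vs W. The label of the tissue was not checked further, and the part of this difference in the results was not tested. No marker of neurons, ependyma, meninges, forebrain or cerebellum had a symbol.

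Of 145 symbols listed for conjugation, glutathione and the Nrf2 pathway, 17 besides Gstm1 and Sult1a1 could be found in the counts, and all 17 were tested. These genes had a symbol because they were listed as differing, and their number is not evidence about the pathways. For KM vs W, 12 of the 17 passed, with 5 above and 7 below the W level in KM rats, and the median log2-fold change was -0.06. This number was 6 without W 1 and 7 without KM 3. Over all 13721 genes tested 10.9% were DEGs (5.58% higher and 5.33% lower) and the median was 0.01. Of the 1759 tested genes with a symbol, 694 were DEGs above and 689 below the W level. In KM vs “0”, 5 of the 17 were DEGs (2 without KM 2, 3 without “0” 3), 3 higher and 2 lower, with a median of 0.03, against 3.65% of all 13686 genes (2.37% higher and 1.29% lower) with a median of 0.01, and against 280 higher and 170 lower of the 1744 genes with a symbol. In “0” vs W, 6 of the 17 were DEGs, 3 higher and 3 lower, with a median of -0.12, against 6.69% of all 13630 genes (3.26% higher and 3.43% lower) with a median of -0.01, and against 224 higher and 212 lower of the 1754 genes with a symbol. After Benjamini-Hochberg adjustment over all genes, 0 of the 17 had an adjusted p under 0.05 with edgeR in any comparison, and 0.0656%, 0.0146% and 0.11% of all genes did in the 3 comparisons, taken in the order above. With DESeq2 this held for 1 gene, Slc7a11 in KM vs W.

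**Figure D3:**
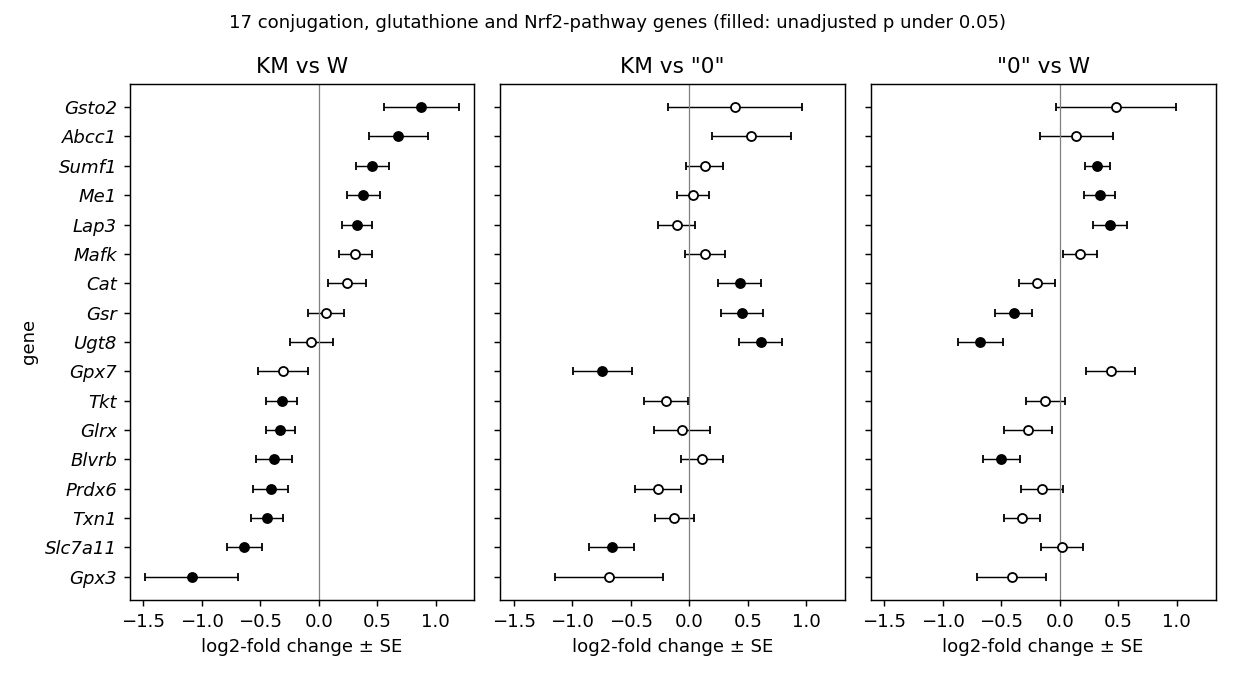
Log2-fold change ± SE (x axis) of the 17 named conjugation, glutathione and Nrf2-pathway genes (y axis) in 3 strain comparisons, with filled points for DEGs. The KM vs W panel has 5 filled points on the right and 7 on the left, with Gpx3 and Slc7a11 lowest. KM rats enter the first and second panel, and W rats the first and last.

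Among the glutathione genes, Slc7a11, the cystine/glutamate antiporter that supplies cysteine, was low in KM rats. It had 24.6, 23.6 and 23.6 CPM in the 3 KM rats, 32.6 to 50.3 CPM in “0” and 32.1 to 46.4 CPM in W rats. Every KM rat was below all 8 other rats, as in 0.876% of 13694 genes. The log2-fold change was -0.64 (SE 0.15, adjusted p = 0.304 with edgeR) in KM vs W and -0.66 (SE 0.19, adjusted p = 0.987 with edgeR) in KM vs “0”. Gsr, glutathione reductase, was a DEG in KM vs “0” (log2-fold change 0.45, SE 0.18) and in “0” vs W (-0.39, SE 0.15), with 18.0 ± 2.48 CPM in “0”, 24.7 ± 3.80 CPM in KM and 23.6 ± 3.12 CPM in W rats. Lap3, a leucine aminopeptidase, was a DEG in KM vs W (0.33, SE 0.13) and in “0” vs W (0.43, SE 0.15), with W rats lowest at 94.4 ± 12.7 CPM.

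The 4 named peroxidases and glutaredoxins had lower fitted levels in KM rats in both comparisons, with a median log2-fold change of -0.37 against W and -0.47 against “0”. In KM vs W, 3 of them were DEGs, where 5.33% of all genes and 689 of the 1759 with a symbol were DEGs lower in KM. In “0” vs W, 0 of the 4 were DEGs, where 6.69% of all genes were, and 1 fitted level was higher and 3 lower in “0” rats. Having a symbol means that the gene was listed as differing. Gpx3, the secreted glutathione peroxidase, had 11.3, 26.1 and 43.5 CPM in KM rats and 40.8 to 71.0 CPM in W rats, and its log2-fold change was -1.08 (SE 0.40). Its highest KM rat was KM 3, the rat with the choroid plexus markers. Prdx6, a peroxiredoxin that uses glutathione, had a log2-fold change of -0.41 (SE 0.15) and the highest named level of this list, 225 ± 22.1 CPM in KM and 299 ± 41.6 CPM in W rats. Glrx, a glutaredoxin, had -0.33 (SE 0.12). For Prdx6 and for Glrx every KM rat was below every W rat, as in 6.27% of the genes tested. In KM vs “0”, 1.29% of all genes were DEGs lower in KM, as were 170 of the 1744 with a symbol. Of this list only Gpx7, a peroxidase of the endoplasmic reticulum, was a DEG there. It had 4.24 ± 0.697 CPM in KM and 7.12 ± 1.45 CPM in “0” rats, with a log2-fold change of -0.74 (SE 0.25), and 5.23 ± 0.705 CPM in W rats.

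Of the other glutathione S-transferases, only Gsto2, an omega-class enzyme that also reduces dehydroascorbate, had a symbol, out of 29 symbols listed. Its level was opposite in order to that of Gstm1, with 1.96 ± 0.576 CPM in KM, 1.45 ± 1.10 CPM in “0” and 1.06 ± 0.211 CPM in W rats. It was a DEG in KM vs W (log2-fold change 0.88, SE 0.32, adjusted p = 0.412 with edgeR). Reads from the near-identical mu-class genes next to Gstm1 could be shared between them or placed on the wrong one, so the level of Gstm1 is uncertain, and how much was not tested. Reads overlapping more than 1 gene took 1.44% to 2.36% of the reads on 1 gene, on no gene or on several genes. Other unassigned reads are not in this share. It does not bound the error at a single gene. None of the other 14 cytosolic sulfotransferases listed had a symbol. For the sulfate donor and desulfation list this was so of all but Sumf1, which activates sulfatases. Sumf1 was a DEG in KM vs W (0.46, SE 0.14) and “0” vs W (0.32, SE 0.11), with W rats lowest at 30.8 ± 1.65 CPM, 42.4 ± 8.13 CPM in KM and 38.7 ± 0.880 CPM in “0” rats.

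Ugt8, which transfers galactose to ceramide in myelin-forming cells, was the only named member of the other conjugating enzymes. It was a DEG with a lower level in “0” rats in both comparisons, with a log2-fold change of 0.61 (SE 0.18) in KM vs “0” and -0.68 (SE 0.19) in “0” vs W. Its levels were 127 ± 15.7 CPM in KM, 83.1 ± 16.9 CPM in “0” and 132 ± 29.3 CPM in W rats.

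The Nrf2 list had 9 named genes besides Gstm1, of 31 listed. In KM vs W, 4 were DEGs lower in KM (Slc7a11, Tkt, Txn1 and Blvrb) and 2 were DEGs higher in KM (Me1 and Abcc1), where 10.9% of all genes were DEGs, and 694 higher and 689 lower of the 1759 with a symbol. In “0” vs W, Me1 was a DEG higher and Gsr and Blvrb were DEGs lower in “0” rats. Of all genes 3.26% were DEGs higher and 3.43% lower there, and 224 and 212 of the 1754 with a symbol. Txn1, thioredoxin, had 47.9 ± 4.07 CPM in KM and 65.1 ± 8.92 CPM in W rats. Me1, the cytosolic malic enzyme, had 160 ± 14.6 CPM and 123 ± 18.5 CPM. Tkt, the transketolase of the pentose phosphate pathway and the most abundant named gene of this list, had 349 ± 31.4 CPM and 434 ± 50.7 CPM. Blvrb, a biliverdin reductase, was a DEG also in “0” vs W, at -0.50 (SE 0.16). For Blvrb every W rat was above every KM and “0” rat, as in 0.869% of 13694 genes. In KM vs “0” the DEGs were Cat, which is catalase, and Gsr, both higher in KM, and Slc7a11, lower in KM. The shares there were 2.37% higher and 1.29% lower of all genes, and 280 and 170 of the 1744 with a symbol. Mafk, a small Maf partner of Nrf2, was a DEG in none of the comparisons, with a log2-fold change of 0.31 (SE 0.14) in KM vs W.

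The genes whose pattern was most like each of the 2 genes were taken by Pearson's r of log2 CPM over the 11 rats, among 13694 genes of which 1758 others had a symbol. The points share libraries and scaling, and r is a description. For Gstm1 the 5 named genes with the highest r were also the first 5 of all genes. Rgma, a repulsive guidance molecule of axons, had r = 0.959, Tubb5, a beta-tubulin, 0.946, Dtx1, a Notch regulator, 0.945, Zfp954, a zinc finger gene, 0.944, and Drap1, a transcriptional corepressor, 0.929. A total of 20 genes had r of at least 0.9. Rgma had 86.7 ± 6.78 CPM in KM, 112 ± 11.1 CPM in “0” and 127 ± 8.04 CPM in W rats, the same order as Gstm1. Tubb5 had 772 ± 59.4 CPM, 943 ± 135 CPM and 1035 ± 33.5 CPM. In each of these 5 genes “0” 3 was the highest and “0” 4 the lowest of the “0” rats, as for Gstm1, which are also the rats with the lowest and highest TMM factor.

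For Sult1a1 no gene reached r = 0.9. The 5 named genes with the highest r were Cyb5b (0.871), a mitochondrial outer membrane cytochrome b5, Wdr53 (0.871), Slc40a1 (0.869), the iron exporter ferroportin, Zfp488 (0.825), a zinc finger gene of oligodendrocytes, and Cdh1 (0.818), which is E-cadherin. Cyb5b had 86.2 ± 7.10 CPM in “0”, 68.1 ± 2.36 CPM in KM and 69.2 ± 1.86 CPM in W rats. Zfp488 had 13.4 ± 2.43 CPM in “0”, 5.78 ± 1.17 CPM in KM and 4.58 ± 0.910 CPM in W rats. Slc40a1 had 3.38 ± 0.277 CPM, 1.89 ± 0.386 CPM and 2.09 ± 0.680 CPM in the same order, and W 4 at 3.01 CPM was again the highest W rat. Cdh1 was close to the floor in several rats, with 0.170 to 5.89 CPM. Between Gstm1 and Sult1a1 themselves r was 0.216.

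**Figure D4:**
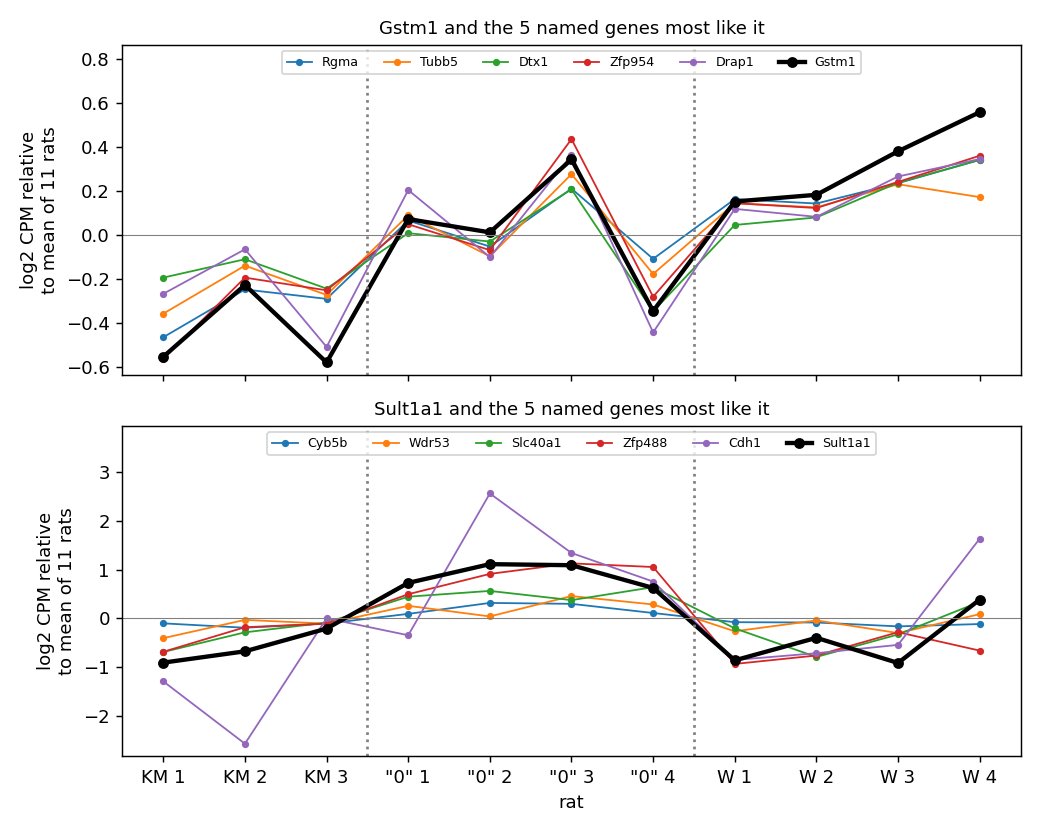
Log2 CPM of Gstm1 (top) and Sult1a1 (bottom), in black, and of the 5 named genes most like each, in color, relative to each gene's mean over the 11 rats (x axis, rats by strain, dotted lines between strains). The Gstm1 group is low in KM rats, and among “0” rats it is highest in “0” 3 and lowest in “0” 4, and most of the Sult1a1 group lies above its mean in “0” rats, with Cdh1 below it in “0” 1 and Wdr53 near it in “0” 2.

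The place of the genes in the genome was read from the RefSeq gene order on GRCr8. Gstm1 lies on chromosome 2 inside a cluster of mu-class genes, next to Gstm2 and Gstm3 on one side and Gstm4 on the other. Sult1a1 lies on chromosome 1 with Sgf29 and Nupr1 on one side and Slx1b, Bola2, Coro1a and Mapk3, the gene for ERK1, on the other. None of these neighbors had both a symbol in the table and a mean of at least 1 CPM over the 11 rats. The nearest genes with both were Gpr61, an orphan receptor 5 protein-coding genes from Gstm1, and Ypel3, 6 genes from Sult1a1. Gpr61 had a log2-fold change of -0.57 (SE 0.22) in KM vs W and was a DEG there, but not in KM vs “0” (-0.40, SE 0.27) or “0” vs W (-0.18, SE 0.26). Ypel3, a regulator of cell growth, was lower in KM than in W rats (-0.33, SE 0.11) and lower in “0” than in W rats (-0.50, SE 0.15), a DEG in both, and had 0.17 (SE 0.18) in KM vs “0”. The next named gene on the other side of Gstm1 was Csf1, a growth factor of macrophages, 9 genes away, with 0.43 (SE 0.17) in KM vs W, where it was a DEG. On the other side of Sult1a1 it was Nfatc2ip, 15 genes away, with 0.64 (SE 0.23) in KM vs W, also a DEG. In KM vs W 10.9% of all genes were DEGs, and 694 higher and 689 lower of the 1759 with a symbol. In “0” vs W these were 6.69%, and 224 higher and 212 lower of 1754. Neighbors had a symbol because they were listed as differing, so their calls are not evidence about the regions. Of the 12 nearest named genes, 3 on each side of each of the 2 genes, the other 8 were Kcnc4, Lamtor5, Taf13 and Stxbp3 around Gstm1 and Zkscan2, Cacng3, Pagr1 and Zfp771 around Sult1a1, from 15 to 37 genes away.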

How the data were processed

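Messenger RNA of 11 rats was sequenced by the authors as poly(A)-enriched, strand-specific single-end libraries. Per the labels and the methods, reads were trimmed with Trimmomatic, mapped with STAR to Rnor_6.0 and counted per gene with HTSeq-count, although the unassigned classes in the files bear the names another counter gives. Versions and the strand setting are not given in the sources used here. The authors deposited raw counts per Ensembl gene, which were used as they were. The rows for reads on no gene or on several genes were left out. Reads on no gene took 16.5% to 22.7% of the reads on a gene, on no gene or on several genes. Groups and numbers came from sample titles. Libraries of a strain were all distinct (chi-square divided by its degrees of freedom 19.8 or more).

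Each pair of strains was fitted on its own rats with TMM factors and edgeR 4.0.16 (quasi-likelihood F-test, original form; limma 3.58.1, R 4.3.3) over genes whose CPM averaged 1 or more. P values were adjusted with the Benjamini-Hochberg method over all genes tested, and log2 CPM used a prior count of 2. The procedure was tested on simulated data. DESeq2 1.42.0 and other settings were tried as alternatives. P values weigh the difference between strains against the spread between these rats within strains.

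The 2 genes and the gene lists were chosen with earlier results of these data known. Named genes were the 2 genes, genes of the pathway lists that were DEGs, the most abundant gene of a list, the 5 most alike and the 3 nearest genes on each side. Markers were given by sums, by counts of DEGs or by both. Mafk and the markers named beyond the most abundant of a list over all rats were chosen after their values were seen. The 3 nearest tested genes could not be looked up, because only 1763 of 32883 identifiers have a symbol. Symbols came from the study's supplementary table, whose fold changes and p values were not used. The nearest genes with a symbol and a mean of at least 1 CPM over the 11 rats were taken instead. Promoter sequences are RefSeq's. The oligodendrocyte marker list is not reported here.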

Additional observations from a re-analysis of the deposited data

Results flagged for a closer look

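Among 38 strain groups of 4 rats, 19 genes in “0” and W rats, 2 had 1 rat far from the others by Dixon's criterion, and chance flags about 1 in 20 groups. Abcc1, which exports glutathione conjugates, had 17.7 CPM in “0” 4 and 6.95 to 8.73 CPM in the other “0” rats. Slc7a11 had 50.3 CPM in “0” 2 and 32.6 to 35.6 CPM in the other “0” rats. The causes were not tested.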

How the results depend on the processing

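The direction of the Gstm1 differences, and of Sult1a1 in KM vs “0” and “0” vs W, was the same under all alternatives run. Sult1a1 in KM vs W turned to 0.13 with the replicate block and ranged from -0.43 to 0.13 when single rats were left out. At an adjusted p under 0.05, edgeR gave 9 genes for KM vs W, 2 for KM vs “0” and 15 for “0” vs W, where DESeq2 gave 147, 40 and 119. Of the 17 named pathway genes edgeR gave 0 in each, and DESeq2 gave 1 in KM vs W. In KM vs “0” the number of DEGs rose from 500 to 777 without a filter on low counts, to 781 with the replicate block and to 1004 without KM 3, “0” 3 and “0” 4 together, an alternative added after seeing the data. The cause was not tested. Leaving out single rats gave 954 (without W 1) to 1831 DEGs in KM vs W, 280 (without “0” 3; 295 without KM 1) to 921 (without KM 3) in KM vs “0”, and 612 to 1017 in “0” vs W. Of the 17 pathway genes, 6 to 9 were then DEGs in KM vs W (12 with all rats; 6 without W 1, 7 without KM 3), 2 to 5 in KM vs “0” (2 without KM 2, 3 without “0” 3) and 4 to 7 in “0” vs W. Without the 3 libraries together the numbers were 7, 3 and 3, and with the replicate block 6 in KM vs W. The replicate numbers do not pair the rats by design: deviations of same-numbered rats correlated at -0.19 to 0.19 in KM vs W, 0.06 to 0.24 in KM vs “0” and -0.58 to 0.52 in “0” vs W, and 2 of 6, 3 of 6 and 3 of 8 rats were most like the rat with their own number. Depth limits Sult1a1, with as few as 56 reads in a rat, more than Gstm1.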

Other observations

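Some named genes ran opposite to the 2 conjugating enzymes over the 11 rats, by Pearson's r of log2 CPM, given as a description since the genes share libraries and scaling. They were chosen after their values were seen. Sox8, a transcription factor of glia, had r = -0.913 with Sult1a1. It had 18.3 to 24.9 CPM in the “0” rats, 36.3 to 42.1 CPM in KM rats and 29.1 to 48.6 CPM in W rats, so that all 4 “0” rats lay below the other 7, as 0.234% of 13694 genes did. The lowest W rat was W 4, which had the most Sult1a1 of the W rats. Sik1, a salt-inducible kinase, had r = -0.888 with Sult1a1, with means of 6.36 ± 1.89 CPM in “0”, 10.2 ± 2.64 CPM in KM and 10.9 ± 2.22 CPM in W rats. Opposite to Gstm1 were Dync1li2, a dynein light intermediate chain (r = -0.927), and Alkbh5, an RNA demethylase (r = -0.924). Alkbh5 had 39.1 ± 2.91 CPM in KM, 30.1 ± 4.76 CPM in “0” and 29.7 ± 3.10 CPM in W rats, and “0” 4 at 37.0 CPM was the highest “0” rat, where Gstm1 was lowest.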
